A study of Mus musculus with 21 samples.

Results

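The 43 genes described here encode proteins that choose splice sites: 23 heterogeneous nuclear ribonucleoproteins (hnRNPs), 12 serine and arginine-rich (SR) and SR-like factors, 4 factors that recognise the 3′ splice site and 4 further RNA-binding proteins. They were chosen by gene symbol, and all 43 of 43 matched an Ensembl identifier in the deposited count tables and passed the filter on low counts, among 15789 genes tested of 47729 listed. hnRNPs coat nascent transcripts and often keep exons out of the mRNA, whereas SR proteins bind exonic enhancers and recruit the spliceosome. Many genes of both families limit their own output through exons that carry early stop codons and send the transcript to nonsense-mediated decay. PTBP1, itself an hnRNP, binds pyrimidine-rich RNA and represses many exons. In B cells such regulators set the isoforms of surface receptors and of cell-cycle genes.

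RNA was sequenced from germinal centre B cells of C57BL/6 mice, sorted into light zone (LZ) and dark zone (DZ) cells 7 days after immunisation with NP-KLH in alum. Conditional knockout (cKO) mice carried CD79acre/+Ptbp1fl/fl and control mice CD79a+/+Ptbp1fl/fl, so both shared the loxP-flanked Ptbp1 alleles and the cKO mice alone had the Cre gene in Cd79a, which is active in the B lineage. Effects of Cre and of the loss of PTBP1 cannot be told apart. LZ cKO, LZ control, DZ cKO and DZ control each had 4 libraries, 1 per sort day, with males on days 1 and 2 and females on days 3 and 4. Cells of 3 to 5 mice, alike in genotype and sex, were pooled for every library, and the LZ and DZ libraries of a day and genotype came from the same pool. PTBP1 crosslink sites came from 5 iCLIP libraries, made from female spleen B cells after 48 h in culture with the mitogen lipopolysaccharide (LPS). These are not germinal centre cells, their genotype is not given, and no control immunoprecipitation was used here.

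The libraries held between 26823882 and 34240096 gene counts. Ptbp1, the targeted gene, ranged from 82.5 to 121 CPM (counts scaled to the library size by TMM) in LZ cKO libraries against 353 to 420 CPM in LZ control libraries. It ranged from 92.1 to 114 CPM in DZ cKO libraries against 416 to 486 CPM in DZ control libraries. The edgeR log2 fold change of Ptbp1 was -1.95 ± 0.11 in the light zone (adjusted p = 1.83e-07) and -2.10 ± 0.11 in the dark zone (adjusted p = 6.67e-08). The paralogue Ptbp2 rose by 3.60 ± 0.22 in the light zone and by 3.75 ± 0.22 in the dark zone (edgeR adjusted p = 2.05e-07 and 1.16e-07). Ptbp3, the third family member, had log2 fold changes of 0.00012 ± 0.091 and -0.18 ± 0.091, neither past the threshold. A list of 9 LZ markers was called higher in LZ cells in 9 of 9 genes in both genotypes, and of 9 DZ markers 8 were called lower in cKO and 7 in control mice. The sum of 11 germinal centre and B cell markers, of which 10 passed the filter on low counts, ranged from 8293 to 10885 CPM over the 16 libraries. Mef2b, which did not pass, had at most 4 counts in a library.

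The 43 genes together held 1.29% to 1.74% of the gene counts of a library. Their summed level was 14059 ± 1413 CPM in LZ cKO cells against 15665 ± 982 CPM in LZ control cells, and 15650 ± 1205 CPM in DZ cKO cells against 17010 ± 710.3 CPM in DZ control cells (mean ± SD, n = 4 each). The ranges overlapped in both zones: 12835 to 15679 CPM in LZ cKO against 14531 to 16597 CPM in LZ control libraries, and 14638 to 17322 CPM in DZ cKO against 16179 to 17626 CPM in DZ control libraries. A sum over genes weights the abundant members, and in bulk libraries fewer cells of a type and less RNA per cell cannot be told apart. Transcript lengths were not used here, so levels are mainly compared between samples. The cut on mean level used below to pick genes to set beside the members is not scaled to length.

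In light zone cells, most splicing factor genes had slightly lower levels in cKO than in control mice, and 0 of 43 passed the test (edgeR quasi-likelihood, Benjamini-Hochberg adjusted over all genes), where 1.08% of all genes did. The log2 fold change was below 0 for 38 of the 43, against 47.5% of all genes tested and 53.5% of the 6669 genes whose mean level was at least that of the lowest member (24.5 CPM). The median over the 43 was -0.17, against 0.019 over all genes. On all 4 sort days the cKO library was the lower one for 29 of 43 genes, against 15.1% of all genes and 23.1% of those 6669, and the higher one for 2, against 14.8% of all genes. At an unadjusted p under 0.05, 10 genes passed, 9 of them lower in cKO cells, against 13.4% and 6.33% of all genes. That count was 5, 1, 3 and 18 without LZ control library 1, LZ control library 3, LZ cKO library 2 or LZ cKO library 3, and it was 6, 5 and 3 without sort day 1, 2 or 4. These counts with a library or sort day left out were not set beside all genes. Without LZ cKO library 2 the median was -0.11. DESeq2 and limma-voom also called 0 of 43, and they called 3.57% and 1.13% of all genes.

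Because the replicate number marks a shared sort day, the same comparison was also fitted with sort day as a block. That fit called 6 of the 43, all lower in cKO cells, where it called 5.5% of all genes and 2.77% as lower. The 6 were Hnrnpab, Srsf2, Hnrnpa1, Srsf6, Pcbp1 and Hnrnpf. Their log2 fold changes with the block were -0.41, -0.34, -0.30, -0.29, -0.24 and -0.23, with block adjusted p-values of 0.0173, 0.0194, 0.0383, 0.0492, 0.0227 and 0.0257 by edgeR.

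Among the hnRNP genes, 22 of 23 had a light zone log2 fold change below 0 and 15 were lower in cKO cells on all 4 days, with a median of -0.18. Hnrnpab, an hnRNP A/B protein of RNA packaging and transport, had 284, 304, 462 and 388 CPM in LZ cKO libraries on days 1 to 4, against 435, 406, 531 and 519.7 CPM in LZ control libraries. The cKO library was the lower one on each day, although day 3 of cKO stood above days 1 and 2 of control. Its log2 fold change of -0.40 ± 0.15 was the lowest of the 43 (edgeR adjusted p = 0.232 without the block). Hnrnpul2, a relative of the scaffold protein hnRNP U, had 38.4, 42.4, 31.0 and 34.7 CPM in LZ cKO against 61.6, 49.7, 45.4 and 32.2 CPM in LZ control libraries. It was lower on 3 of 4 days, and the groups overlapped (-0.37 ± 0.18, edgeR adjusted p = 0.398).

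Hnrnpa1, which opposes SR proteins at many exons, had 53.6, 37.3, 45.2 and 37.5 CPM in LZ cKO against 56.5, 51.6, 59.3 and 45.7 CPM in LZ control libraries. The cKO library was the lower one on all 4 days, with overlapping groups (-0.30 ± 0.15, edgeR adjusted p = 0.401 without the block). Named pseudogenes of Hnrnpa1, Srsf3 and Matr3 are in the RefSeq table, and reads shared with such copies make the counts of these genes uncertain. Hnrnpl, which binds CA repeats and controls exons of the leukocyte antigen CD45, did not overlap between groups, with 493, 410.1, 475 and 490.3 CPM in LZ cKO against 528, 515, 536 and 526 CPM in LZ control libraries. Raly, a relative of hnRNP C, did not overlap either, with 129, 132, 155 and 145 CPM in LZ cKO against 172, 164, 175 and 158 CPM in LZ control libraries. Hnrnpl and Raly were the only 2 of the 43 with every LZ cKO library below every LZ control library, a pattern that 4.12% of all genes showed, and they missed the edgeR threshold (adjusted p = 0.304 and 0.454).

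Of the SR and SR-like genes, 11 of 12 had a light zone log2 fold change below 0, 9 of them on all 4 days, with a median of -0.18. Srsf2, an SR protein that activates exon inclusion, had 258, 253, 368 and 343 CPM in LZ cKO against 354, 347, 432 and 408 CPM in LZ control libraries. Days 1 and 2 of cKO were below every control library, and days 3 and 4 were within the control range or just under it (-0.33 ± 0.12, edgeR adjusted p = 0.227 without the block). Srsf9, another exon enhancer-binding factor, had the lowest adjusted p of the 43 in this zone (-0.25 ± 0.087, edgeR adjusted p = 0.21).

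Srsf11, an SR-related protein with an RNA recognition motif, was the exception among the SR genes. It had 431, 398, 384 and 413 CPM in LZ cKO against 367, 379, 342 and 365 CPM in LZ control libraries, so every cKO library stood above every control library. It was the only one of the 43 with that pattern, which 4.53% of all genes showed. The log2 fold change was 0.16 ± 0.075 and missed the threshold (edgeR adjusted p = 0.366, and 0.172 with the block).

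The 4 splice-site recognition genes are U2af2 and U2af1, which bind the pyrimidine tract and the AG of the 3′ splice site, Sf1, which binds the branch point before the U2 snRNP, and Sf3b1, a U2 snRNP subunit at the branch point. In light zone cells U2af1, U2af2 and Sf1 were lower in cKO libraries on all 4 days, with log2 fold changes of -0.29 ± 0.13, -0.17 ± 0.094 and -0.12 ± 0.099, and Sf3b1 had 0.032 ± 0.10. None of the 4 passed edgeR, with adjusted p-values of 0.354, 0.464, 0.689 and 0.943.

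Of the 4 further members, Matr3, a nuclear matrix protein that binds PTBP1, had the highest light zone log2 fold change of the 43 (0.22 ± 0.12, edgeR adjusted p = 0.468). Its level was 256, 279, 349 and 307 CPM in LZ cKO against 232, 233, 273 and 285 CPM in LZ control libraries. The cKO library was the higher one on each day, and the groups overlapped, with days 3 and 4 high in both. Khdrbs1, the signalling-regulated splicing factor Sam68, had 0.038 ± 0.095, and Hnrnph3, a G-tract-binding hnRNP, had 0.096 ± 0.093 (edgeR adjusted p = 0.922 and 0.747). Raver1, a co-repressor of PTBP1, and Ewsr1, an RNA-binding FET family protein, were lower in cKO on all 4 days (-0.15 ± 0.10 and -0.21 ± 0.10, neither past the threshold).

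**Figure D1:**
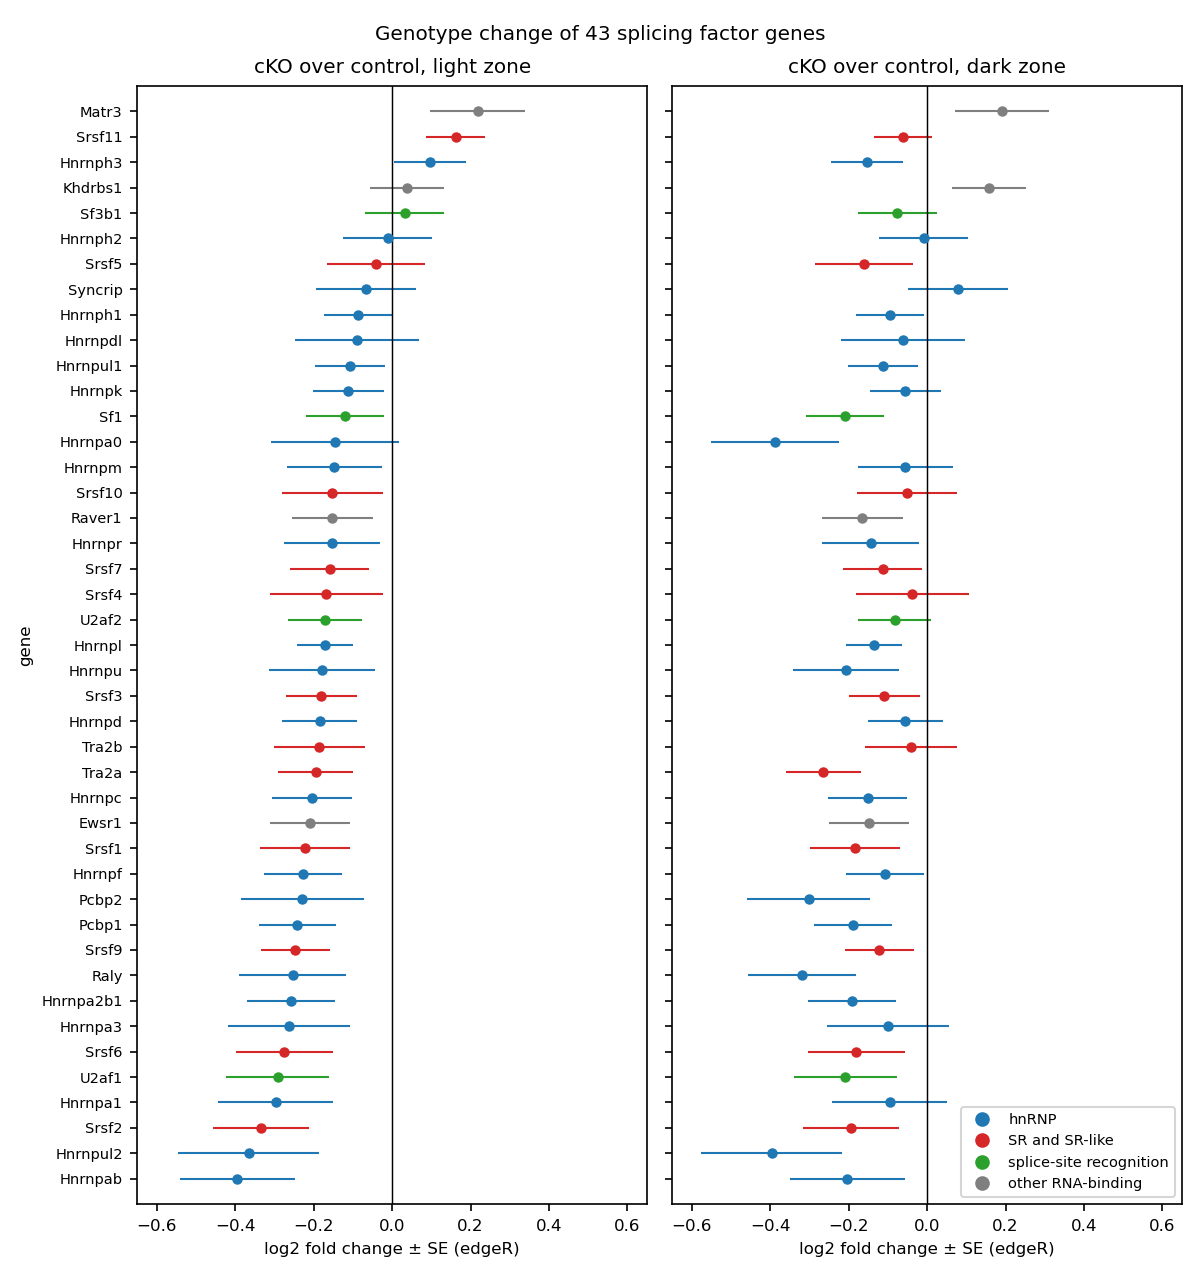
Log2 fold change of cKO over control for each of the 43 genes in the light zone (left) and the dark zone (right), with points at the edgeR estimate, bars of ± 1 SE and colours by family. In the light zone 38 points lie left of 0 and in the dark zone 40, most of them within -0.40 and 0, and none passed the test.

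In dark zone cells, too, most of the genes had lower levels in cKO than in control mice. By edgeR 0 of 43 passed, where 0.627% of all genes did, and 4 passed an unadjusted p under 0.05, all lower in cKO cells (11.4% of all genes passed, and 4.69% as lower). That count was 1, 2, 7 and 1 without DZ control library 3, DZ cKO library 2, DZ cKO library 3 or DZ cKO library 4, and 7, 1, 2 and 1 without sort days 1 to 4. These counts with a library or sort day left out were not set beside all genes. DESeq2 and limma-voom also called 0, where they called 2.74% and 0.741% of all genes. The log2 fold change was below 0 for 40 of 43, against 48.3% of all genes and 54.3% of the 6669 at or above the lowest member's level, with a median of -0.12 against 0.011 over all genes. The cKO library was the lower one on all 4 days for 16 of 43, against 10.3% of all genes and 13.6% of those 6669, and the higher one on all 4 days for 0, against 12.5% of all genes. The fit with sort day as a block called 1 of 43, Hnrnpa0, which was lower in cKO cells, where it called 3.27% of all genes and 1.37% as lower.

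Hnrnpa0, an hnRNP A/B family protein that binds AU-rich elements, had 53.5, 41.9, 41.8 and 35.7 CPM in DZ cKO against 61.5, 53.4, 56.7 and 54.7 CPM in DZ control libraries. Only day 1 of cKO reached the control range (-0.39 ± 0.16, edgeR adjusted p = 0.365 without and 0.0323 with the block). Hnrnpul2 had the lowest log2 fold change of the 43 in this zone, with 48.9, 41.6, 39.8 and 31.0 CPM in DZ cKO against 46.1, 61.2, 57.2 and 47.8 CPM in DZ control libraries. It was lower on days 2 to 4 and higher on day 1 (-0.40 ± 0.18, edgeR adjusted p = 0.417). 

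Raly had 109, 148, 167 and 137 CPM in DZ cKO against 133, 195, 208 and 162 CPM in DZ control libraries. It was lower on each of the 4 days, while day 1 was low in both genotypes (-0.32 ± 0.14, edgeR adjusted p = 0.375). Pcbp2, a poly(C)-binding hnRNP that stabilises mRNAs, had 32.9, 29.1, 30.4 and 26.1 CPM in DZ cKO against 44.1, 34.6, 38.0 and 29.5 CPM in DZ control libraries, also lower on each day (-0.30 ± 0.16, edgeR adjusted p = 0.506). Tra2a, an SR-like activator, and Hnrnph3 were the 2 genes whose dark zone groups did not overlap, both lower in cKO, as 3.13% of all genes were. Tra2a had 109, 97.1, 95.7 and 101 CPM in DZ cKO against 126, 119, 120.3 and 119 CPM in DZ control libraries (-0.26 ± 0.096, edgeR adjusted p = 0.267). Hnrnph3 had 64.9, 61.0, 66.1 and 63.7 CPM in DZ cKO against 76.2, 73.2, 66.2 and 68.7 CPM in DZ control libraries (-0.15 ± 0.093, edgeR adjusted p = 0.589).

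The 3 genes above 0 in the dark zone were Matr3 (0.19 ± 0.12), Khdrbs1 (0.16 ± 0.095) and Syncrip, an hnRNP Q protein (0.079 ± 0.13). The hnRNP genes had 22 of 23 values below 0 and the SR genes 12 of 12, with medians of -0.13 and -0.12. Hnrnph2, a G-tract-binding hnRNP, was next at -0.0087, a value whose sign differed between alternatives. Srsf11 had 471, 377, 434 and 393 CPM in DZ cKO against 452, 414, 449.6 and 433 CPM in DZ control libraries, with fully overlapping groups (-0.061 ± 0.075, edgeR adjusted p = 0.848).

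**Figure D2:**
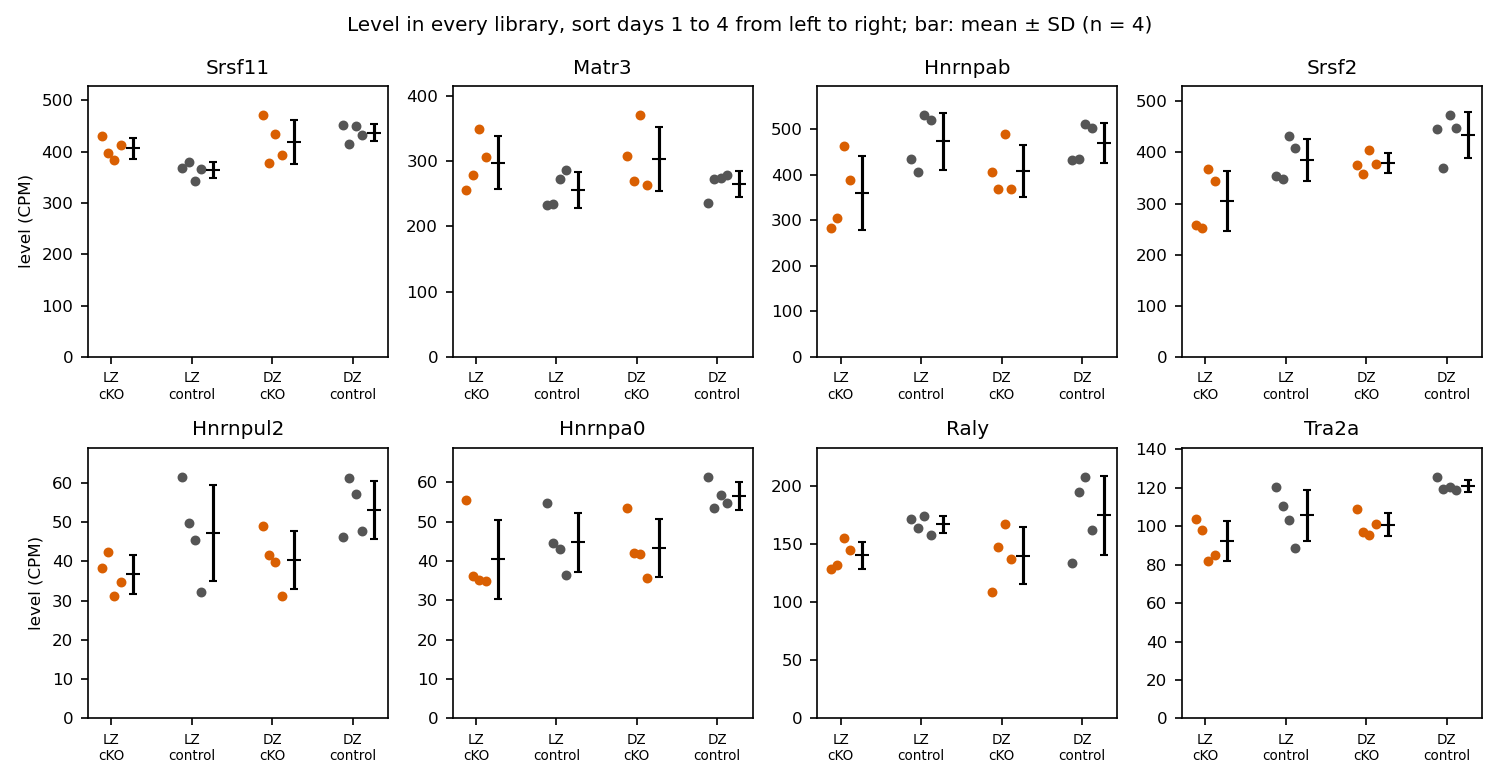
Level in CPM of 8 of the genes in each library, by group (LZ cKO, LZ control, DZ cKO, DZ control), with sort days 1 to 4 from left to right within a group and bars of mean ± SD (n = 4). The LZ cKO libraries of Srsf11 lie between 384 and 431 CPM, all above the LZ control libraries, which lie between 342 and 379 CPM.

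Whether the genotype difference depended on the zone was tested by the interaction of zone and genotype. It called 0 of the 43 and 0% of all 15789 genes, and 0 of the 43 at an unadjusted p under 0.05, where 2.95% of all genes passed. DESeq2 called 0 of the 43 and 4 genes in all (0.0253%). The highest interaction log2 fold changes of the 43 were those of Hnrnph3 (0.25 ± 0.13), Hnrnpa0 (0.24 ± 0.23) and Srsf11 (0.22 ± 0.11), each with an edgeR adjusted p of 0.9998. These 3 were also those above 0 on all 4 days, as 7.61% of all genes were. The genotype comparisons do not share libraries between zones, but the LZ and DZ libraries of a day came from the same pool.

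In several other gene lists, too, most genes had genotype log2 fold changes on the same side of 0. The 20 genes of a G1/S list all had light zone log2 fold changes below 0, with a median of -0.37, and 9 were called lower with the block. A G2/M list had 19 of 20 below 0 and a median of -0.19, and the block called 2, Aurkb and Nusap1, lower. In the dark zone the medians of the G1/S and G2/M lists were -0.16 and -0.075 and the block called 0 of either, and without the block 0 genes of either were called by edgeR in either zone. Most markers of other cell types had log2 fold changes above 0. The 9 macrophage markers were above control in 9 of 9 genes in both zones, with summed levels of 78.2 to 486 CPM in LZ cKO against 23.3 to 389 CPM in LZ control libraries and 43.5 to 1222 CPM in DZ cKO against 14.7 to 403 CPM in DZ control libraries. None was called without the block, which called Cd68 higher in both zones and C1qa and Lyz2 in the dark zone. The T cell markers were above control in 8 of 9 genes in both zones, and their sums overlapped. The only T cell marker called with the block was Lck, which was lower in LZ cKO cells (-0.56 ± 0.19, edgeR adjusted p = 0.189 without and 0.0319 with the block). The 7 NK cell markers were above control in 7 of 7 genes in both zones and summed to at most 168 CPM in a library. Of these the block called Nkg7 higher in the dark zone (1.13 ± 0.61, edgeR adjusted p = 0.534 without and 0.0356 with the block). Of 7 plasma cell markers 3 were below 0 in the light zone (median 0.14) and 0 in the dark zone (median 0.72). Their dark zone sums overlapped, at 2494 to 12159 CPM in DZ cKO against 2718 to 8253 CPM in DZ control libraries. There the block called 1, Slpi, higher (1.47 ± 0.62, edgeR adjusted p = 0.365 without and 0.0382 with the block).

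Of the 7 dendritic cell markers 5 were above control in the light zone and 7 in the dark zone, but most of their summed level was Flt3, which haematopoietic progenitors also express. Flt3 alone had 111 to 145 CPM in LZ cKO against 48.5 to 67.0 CPM in LZ control libraries and was called higher (1.14 ± 0.11, edgeR adjusted p = 8.08e-05). In the dark zone Flt3 had 74.9 to 94.8 CPM in DZ cKO against 56.2 to 60.1 CPM in DZ control libraries (0.45 ± 0.11, edgeR adjusted p = 0.0867 without and 0.00521 with the block). The other 6 dendritic cell markers summed to 9.54 to 33.1 CPM in LZ cKO against 4.17 to 23.6 CPM in LZ control libraries and to 3.45 to 31.4 CPM in DZ cKO against 2.66 to 16.4 CPM in DZ control libraries, and these ranges overlapped. No marker was at 0 in all 16 libraries. The part of the cell-cycle and marker lists in the splicing factor values was not tested.

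Genes of the wider splicing machinery were set beside the 43. Of 47 snRNP and spliceosome genes, 0 were called in the light zone and 42 had log2 fold changes below 0, with a median of -0.17, and 8 were called lower with the sort-day block. In the dark zone 37 of 47 were below 0, with a median of -0.12, 0 were called, and the block called 1, Lsm6, lower. The 6 kinases of SR proteins, which phosphorylate the RS domain and set SR protein activity, had a light zone median of 0.15, with 1 of 6 below 0, and a dark zone median of -0.025. The block called 1 of the 6, Clk1, higher in the light zone. The 18 genes of nonsense-mediated decay and the exon junction complex had medians of -0.043 in the light zone and -0.061 in the dark zone, and the block called Eif4a3 lower in the light zone and Srrm1 lower in the dark zone. Of 25 other splicing regulators 24 were tested, with medians of -0.065 and -0.033. The block called Sfpq lower and Celf2 higher in both zones, and Taf15 lower in the dark zone. Without the block no gene of these 4 lists was called by edgeR in either genotype comparison.

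Between the zones of control mice, most of the genes had lower levels in the light zone. Light zone cells had lower levels than dark zone cells for 33 of 43 genes, against 50% of all genes and 53.7% of the 6669 at or above the lowest member's level. The LZ library was the lower one on all 4 days for 22 of 43, against 17.9% of all genes and 26.8% of those 6669. The median log2 fold change was -0.13, against -0.00026 over all genes, and it was -0.083 without LZ control library 2. By edgeR 1 of 43 passed, where 7.49% of all genes did and 3.33% as lower. At an unadjusted p under 0.05, 6 of 43 passed, all lower in LZ cells, against 19.9% of all genes and 9.22% as lower. That count was 3 without DZ control library 4 or sort day 4, which was not set beside all genes. DESeq2 called 3 of 43, where it called 10.9% of all genes. The fit with the sort-day block called 8 of 43, all lower in LZ cells (Hnrnpa0, Hnrnph3, Hnrnpk, Hnrnpul1, Pcbp1, Sf1, Srsf1 and Srsf11), against 13.7% of all genes and 6.53% as lower.

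The gene that passed without the block was Srsf11, with 367, 379, 342 and 365 CPM in LZ control and 452, 414, 449.6 and 433 CPM in DZ control libraries. All LZ control libraries were below all DZ control libraries, as were those of Hnrnph3, Hnrnpul1 and Hnrnpa2b1 among the 43, a pattern of 6.83% of all genes. The log2 fold change of Srsf11 was -0.27 ± 0.075 (edgeR adjusted p = 0.0401). The call was lost under 16 of 29 alternatives, among them 12 of 20 that left out a library or a sort day, with adjusted p-values up to 0.566, and its sign held in all 29. In cKO mice Srsf11 was not called, with 431, 398, 384 and 413 CPM in LZ cKO and 471, 377, 434 and 393 CPM in DZ cKO libraries (-0.044 ± 0.075, edgeR adjusted p = 0.791). The difference between genotypes is the interaction given above, which did not pass.

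In cKO mice 37 of 43 genes had light zone levels below dark zone levels, against 50.1% of all genes and 53% of those 6669, with a median of -0.15 (-0.20 in males and -0.092 in females). On all 4 days 20 of 43 were lower, against 18.1% of all genes and 25.2% of those 6669. No gene passed edgeR, where 9.09% of all genes did. At an unadjusted p under 0.05, 12 of 43 passed, 11 of them lower in LZ cells (23.2% of all genes passed, and 11.8% as lower), and DESeq2 called 4 (Hnrnpk, Hnrnpul1, Pcbp1 and Sf3b1), where it called 13.8% of all genes. The count at an unadjusted p was 6, 4, 20 and 4 without LZ cKO library 1, LZ cKO library 2, LZ cKO library 3 or DZ cKO library 3, and 3 and 4 without sort day 1 or 2. These counts with a library or sort day left out were not set beside all genes. With the sort-day block 13 passed, 12 lower and 1 higher, against 17.3% of all genes, 8.99% as lower and 8.28% as higher. Hnrnpul1, Pcbp1 and U2af2 had all LZ cKO libraries below all DZ cKO libraries, as 6.87% of all genes had. The higher one was Sf3b1, with 819, 932, 1003 and 809.9 CPM in LZ cKO and 739, 755, 776 and 643 CPM in DZ cKO libraries. Its LZ libraries were all above its DZ libraries, as in 7.44% of all genes (0.29 ± 0.10, edgeR adjusted p = 0.0906 without and 0.0323 with the block). In control mice Sf3b1 was also higher in LZ libraries on all 4 days (0.18 ± 0.10, edgeR adjusted p = 0.345).

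The lowest block adjusted p-values of the 43 in cKO mice were those of Pcbp1, the poly(C)-binding hnRNP E1, and of Hnrnpk, which binds C-rich RNA. Hnrnpk had 914, 985, 1171 and 1104 CPM in LZ cKO and 1152, 1173, 1383 and 1283 CPM in DZ cKO libraries, lower in LZ on each day (-0.26 ± 0.09, edgeR adjusted p = 0.0912 without and 0.00322 with the block). Pcbp1 had 417, 392, 495 and 466 CPM in LZ cKO and 536, 508, 600.2 and 506 CPM in DZ cKO libraries, with no overlap between zones (-0.28 ± 0.099, edgeR adjusted p = 0.092 without and 0.00274 with the block).

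Cell-cycle genes, too, had mostly lower levels in the light zone. The G2/M list had medians of -0.81 in cKO and -0.62 in control mice, with 10 and 8 of 20 genes called lower in LZ cells, and 20 and 17 with the block. The G1/S list had medians of -0.44 and -0.21, with 1 of 20 genes called lower in each genotype, and 18 and 4 with the block. Of the 47 snRNP and spliceosome genes 6 were called lower in LZ cells of cKO mice and 2 in control mice, with medians of -0.18 and -0.13, and 16 and 6 with the block.

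Markers of other cell types also differed between zones. The 7 plasma cell markers were lower in LZ cells in 7 of 7 genes in cKO mice (median -1.21) and in 6 of 7 in control mice (median -0.78). They summed to 1367 to 2521 CPM in LZ cKO and 2494 to 12159 CPM in DZ cKO libraries, and to 1347 to 2234 CPM in LZ control and 2718 to 8253 CPM in DZ control libraries. Jchain, the joining chain of secreted antibodies, was called lower in LZ cells of cKO mice (-1.95 ± 0.47, edgeR adjusted p = 0.0164). With the block 3 plasma cell markers were called lower in LZ cells of cKO mice. In control mice the block called 1, Jchain, lower and 1, Irf4, higher. T cell markers were higher in LZ cells in 6 of 9 genes in cKO mice (median 0.96) and in 7 of 9 in control mice (median 1.23), and summed to 329 to 621 CPM in LZ cKO and 309 to 491 CPM in DZ cKO libraries, and to 409.7 to 592 CPM in LZ control and 341 to 423 CPM in DZ control libraries. Lck, a T cell receptor kinase, was called higher in LZ cells of both genotypes, and Cd2 was called lower in control mice. With the block 5 T cell markers were called higher in LZ cells of cKO mice and 6 in control mice. The block called 1, Cd2, lower in each genotype. Macrophage markers were lower in LZ cells in 8 of 9 genes in cKO mice (median -1.40) and in 1 of 9 in control mice (median 0.33), with none called without the block. The block called Cd68 higher in LZ cells of both genotypes. Without the block its log2 fold change was 0.52 ± 0.32 in cKO mice (edgeR adjusted p = 0.372 without and 0.0491 with the block). In control mice it was 0.78 ± 0.33 (edgeR adjusted p = 0.193 without and 0.0128 with the block). The part of the cell-cycle and marker lists in the zone values of the splicing factors was not tested.

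**Figure D3:**
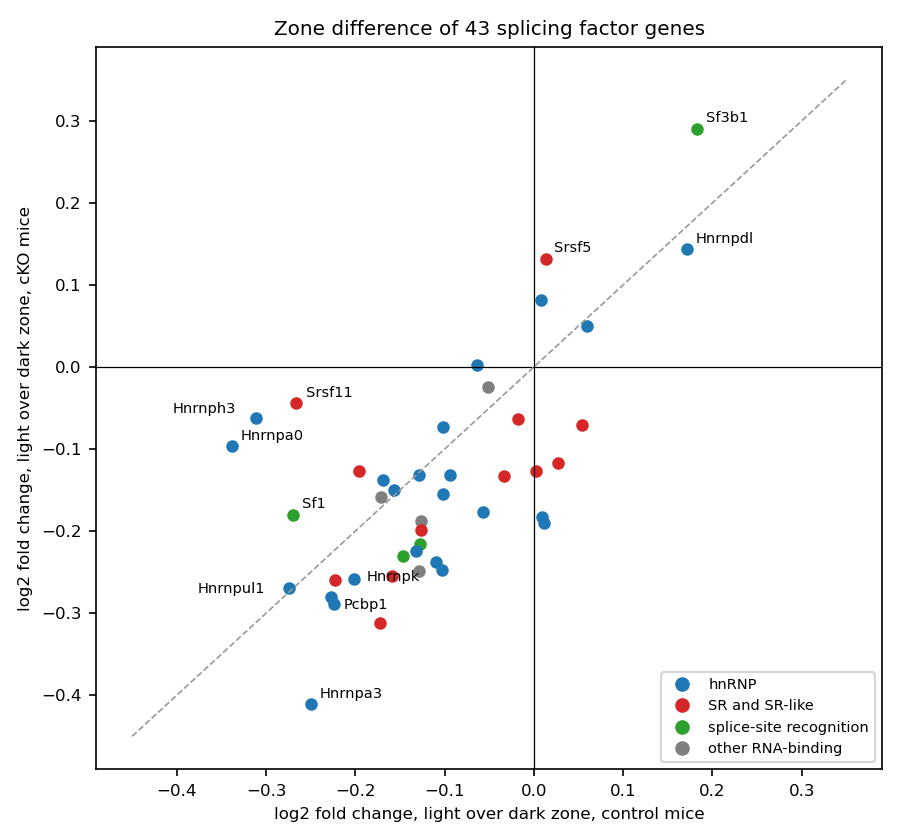
Log2 fold change of light over dark zone for the 43 genes in cKO mice (vertical) against control mice (horizontal), with colours by family and the dashed line at equal values. Most points lie below 0 on both axes, Sf3b1 lies above 0 on both at 0.29 and 0.18, and Srsf11, Hnrnph3 and Hnrnpa0 lie to the left, with lower values in control than in cKO mice.

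PTBP1 crosslink sites were found inside the span of 42 of the 43 genes in the authors' pooled list of LPS-stimulated B cells, on the strand of the gene. Of 10430 tested genes with a span and strand in the RefSeq table, 49.3% had such a site, and of the 5268 of them at or above the lowest member's level in germinal centre cells 70.6% did. The 43 genes held 2151 sites and 3457 cDNAs. The median gene had 37 sites, 69 cDNAs and 2.33 sites per kb of span, and over the whole length of the spans there were 2.61 sites per kb, against 0.371 over the 10430 genes and 0.68 over the 5268. The counts are not scaled to depth or to the abundance of a transcript in the LPS-stimulated cells, for which no RNA levels were used here. Of the 39 members whose strand is in the table, 0 had a site on the opposite strand, against 3.06% of all genes. For Hnrnpul2, U2af2, Khdrbs1 and Matr3 the strand is not in the table and sites on either strand were counted.

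Sites of at least 5 cDNAs lay in 22 of 43 genes, against 10.8% of all genes and 18.1% of those 5268. Sites near a site in at least 3 of the 5 replicate lists lay in 14 of 43, against 4.83% and 7.9%. The replicate lists themselves held 6211 to 45505 sites and put a site in 7 to 33 of the 43 genes. Of the 43, 5 had a site in all 5 lists and 6 had none in any of them, counts that were not set beside all genes here. Of all pooled sites 72.6% rested on a single cDNA.

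The 8 genes with the most cDNAs were U2af2 (281), Matr3 and Hnrnpa2b1 (232 each), Hnrnpul1 (201), Srsf11 (197), Hnrnpc (189), Hnrnpm (181) and Tra2b (175). Hnrnpa2b1, a reader of purine-rich RNA that also sorts RNA for transport, had the densest coverage with 11.2 sites per kb, followed by Hnrnpk with 9.25. At the other end, Hnrnpa0 had no site, Pcbp1 and Srsf5 had 1 site each, Srsf7 had 2, U2af1 had 4 and Hnrnpul2 had 5. Hnrnpa0, the gene called in the dark zone with the block, had 0 cDNAs. The genes called with the block in the light zone had between 1 (Pcbp1) and 110 cDNAs (Hnrnpf). A link between these calls and the sites, which come from other cells, was not tested.

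**Figure D4:**
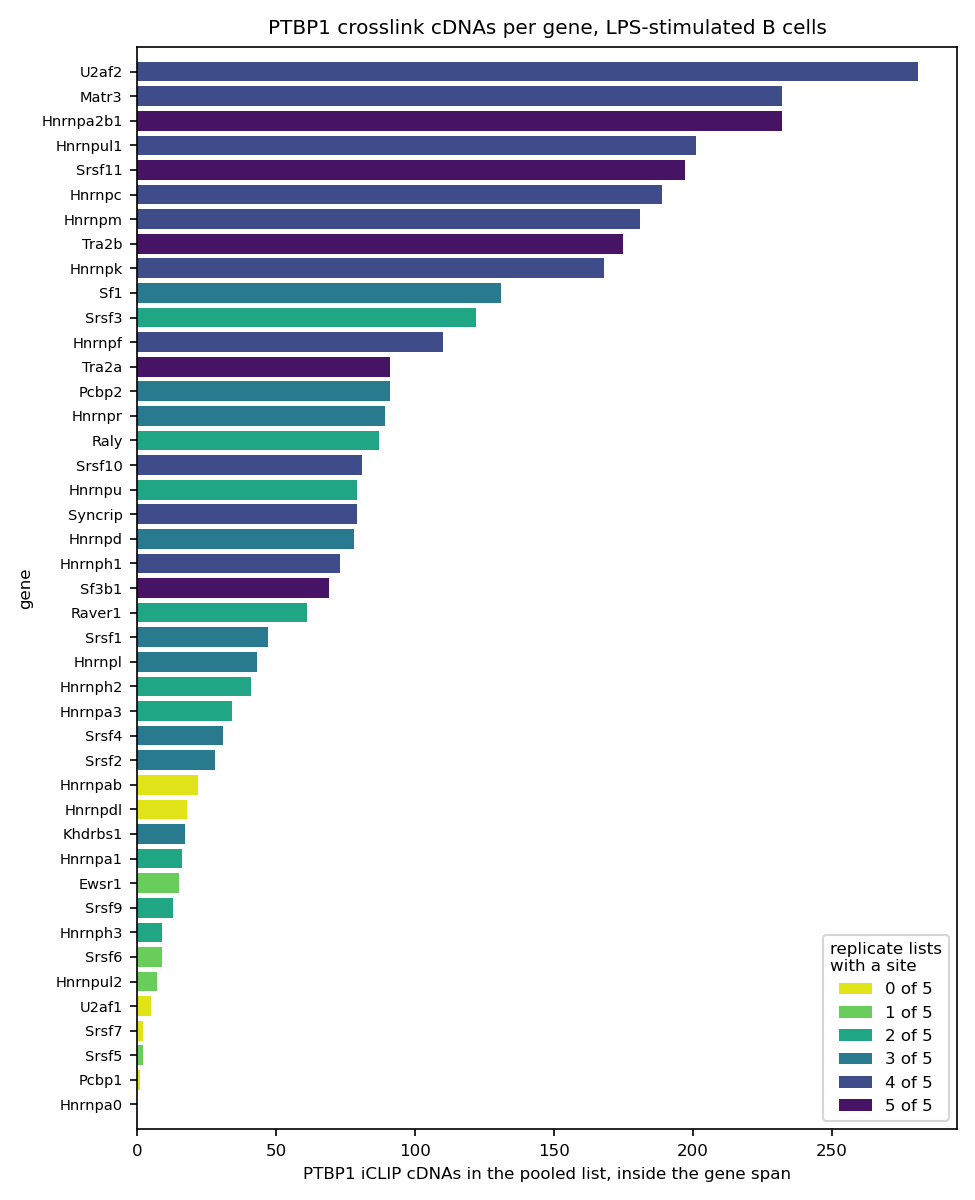
Number of PTBP1 iCLIP cDNAs in the authors' pooled list inside each gene's span, with bars coloured by the number of replicate lists that hold a site in the gene. Bars reach 281 cDNAs for U2af2, while Hnrnpa0 has 0.

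The sites formed clusters, taken here as runs of sites at most 15 bases apart. Coordinates are given on mm10, the build of the site lists. The only cluster of the 43 genes with a site in all 5 replicate lists was in Srsf11, at chr3:158023588-158023822 on the minus strand. It spans 235 bases at 50.3% of the length of the gene, with 66 sites and 129 cDNAs, which are 65.5% of the cDNAs of the gene. Exon positions were not used here, so no site is assigned to an exon, an intron or a UTR.

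In U2af2 the leading cluster, at chr7:5068971-5069162 on the plus strand, held 86 cDNAs at 42.9% of the gene and had sites in 4 lists. A second one with 24 cDNAs followed at chr7:5069207-5069249. Hnrnpa2b1 had 2 neighbouring clusters of 76 and 50 cDNAs at chr6:51462276-51462343 and chr6:51462111-51462182 on the minus strand, 80.5% and 82.2% along the gene, each with sites in 4 lists. Tra2b, an SR-like activator of exon inclusion, had a like pair of 39 and 37 cDNAs at chr16:22255634-22255696 and chr16:22255733-22255786 on the minus strand, 48.2% and 47.8% along the gene, each with sites in 3 lists. Hnrnpc, which binds uridine tracts and competes with U2AF, had its leading cluster at chr14:52096270-52096293 on the minus strand with 27 cDNAs and sites in 4 lists. Hnrnph1, a G-tract-binding hnRNP, had 35 cDNAs, 47.9% of its total, in a cluster at chr11:50381228-50381253 on the plus strand with sites in 4 lists. In Hnrnpul1 and Hnrnpm the sites were spread, and their leading clusters held 9.95% and 11.0% of the cDNAs.

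When each span was divided into 5 equal parts, the middle one held 32.2% of the sites of the 43 genes, 48.1% of the sites of the 12 SR genes and 27.1% of those of the 23 hnRNP genes, against 19.1% over all genes. This was uneven among the SR genes. The share was 90.1% in Srsf11, 69.5% in Tra2b, 65.7% in Srsf1, 36.6% in Srsf3 and at most 9.43% in Srsf2, Srsf10 and Tra2a. It was 5 of 6 sites in Srsf6, 3 of 18 in Srsf4 and 0 in Srsf5, Srsf7 and Srsf9, which had 10 sites at most. Without Srsf11 the SR share was 36.0%, without Tra2b it was 43.03%, and without any other single SR gene it was 46.8% to 53.5%.

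**Figure D5:**
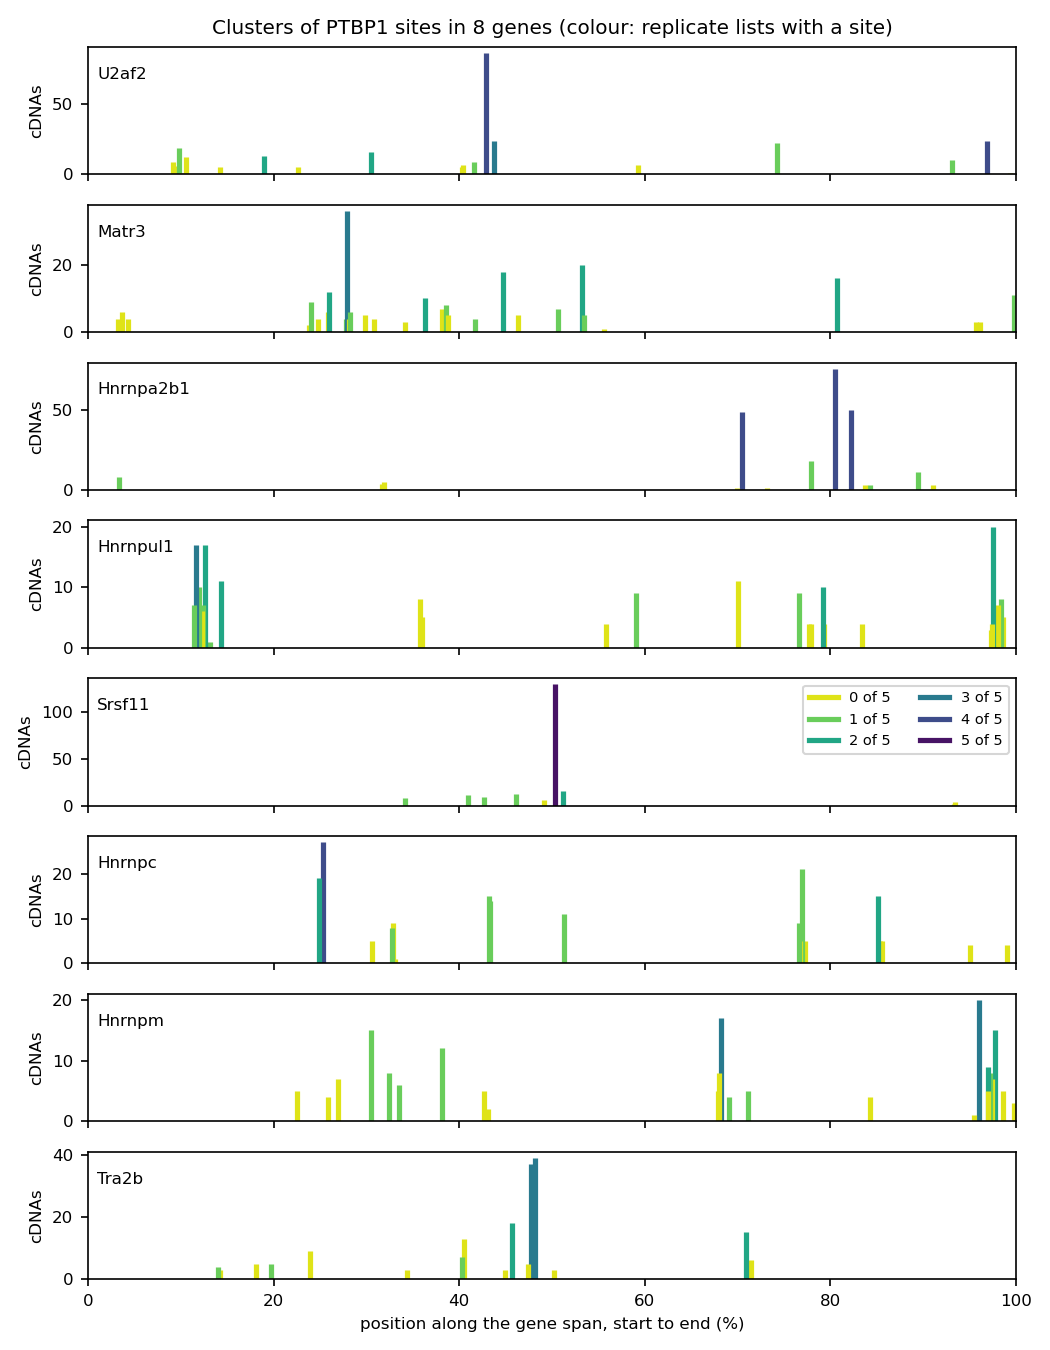
Clusters of PTBP1 sites along the 8 genes with the most cDNAs, placed by percent of the gene span from its start, with height in cDNAs and colour by the number of replicate lists with a site. Srsf11 has 1 dominant cluster of 129 cDNAs at its middle, while the sites of Hnrnpul1 and Hnrnpm are spread over the span.

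Hnrnpk, with 113 sites and 168 cDNAs, is also the host of the hairpin of miR-7a, a microRNA whose processing from Hnrnpk transcripts is known in other cells to be regulated by RNA-binding proteins. Its sequences, from RefSeq on GRCm38.p6, are shown because sites lay on both sides of the hairpin and none inside it. Capitals mark the seed (bases 2 to 8) in the mature arms and the 2 mature arms in the hairpin, which lies at chr13:58392779-58392886 on the minus strand.
mmu-miR-7a-5p: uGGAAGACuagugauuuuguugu
mmu-miR-7a-1-3p: cAACAAAUcacagucugccaua
microRNA 7-1 hairpin: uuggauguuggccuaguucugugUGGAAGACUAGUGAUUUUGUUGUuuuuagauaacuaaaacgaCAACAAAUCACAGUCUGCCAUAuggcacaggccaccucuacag
Within 100 bases of the hairpin, 7 sites with 8 cDNAs lay 42 to 61 bases after its 3′ end and 4 sites with 5 cDNAs lay 78 to 93 bases before its 5′ end. The first group lay near a site in 1 replicate list and the second in 0. Over the whole gene there were 0.925 sites per 100 bases. Of the pyrimidine motifs bound by PTBP1, UCUU was absent from the hairpin and UUCU was present once, from base 17, on the RNA strand as printed, while 35.4% and 42.1% of the 1005 mouse hairpins in the RefSeq table held them. The motifs overlap each other in UUCUU and UCUUCU. These counts describe the letters and a few cDNAs, and no level of the microRNA was measured here. The leading clusters of Hnrnpk lay elsewhere, at chr13:58393103-58393158 with 35 cDNAs and at chr13:58398308-58398353 with 28 cDNAs and sites in 4 lists.

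Promoter windows of 300 bases, from 250 bases before to 50 after a gene start, were available for 39 of the 43 genes. None of their 53 windows held a PTBP1 site on the gene's strand, and 1.16% of the genes of the table had one.

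Over the 43 genes the number of cDNAs and the genotype log2 fold change had Spearman's rho of 0.22 in the light zone and 0.29 in the dark zone, and over the 10430 genes of the table -0.081 and -0.14. With sites per kb in place of cDNAs rho was 0.056 and 0.20 over the 43. These are descriptions across genes, which share libraries and depth and are not independent replicates, and the sites come from other cells than the levels.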

How the data were processed

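Per the labels' protocols, poly(A) RNA of each pool was amplified with a low-input kit. The authors deposited raw counts per Ensembl gene identifier, and the submitters' processing notes name Trim Galore 0.4.2, HISAT2, HTSeq and GRCm38. The annotation and strand setting used for counting are not given in the labels, so the counts of the 14 members whose span overlaps another gene are uncertain. Summary lines that name no gene held 41.4% to 49.8% of entries and were left out. For iCLIP the notes name Bowtie, and the deposited score is a signed cDNA count whose sign gives the strand. The threshold on sites, per the file headers, was a false discovery rate of 0.05, estimated with 100 permutations in windows of 15 nt. The pooled list was called by the authors on summed replicates.

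The 16 RNA libraries entered 1 fit in edgeR 4.0.16 under R 4.3.3, with TMM scaling, the filterByExpr filter (minimum count 10) and the robust two-sided quasi-likelihood test. P-values were adjusted over all 15789 genes by Benjamini-Hochberg, and a call is an adjusted p under 0.05. The ± beside a log2 fold change is an approximate standard error (SE) from the fit without the block. It was worked back from the test, as the absolute log2 fold change over the square root of the F statistic. The common biological coefficient of variation was 40.3%. CPM are TMM-scaled. Day-by-day directions used log2(CPM + 0.5). Libraries of a group differed by more than sampling noise (chi-square per degree of freedom 22.9 to 178). The labels make the replicate number a sort day, and same-numbered libraries deviated together (correlation 0.123 to 0.468 over 24 pairs of libraries), so the block is printed where it changes the call of a gene named or moves a count of calls by over 1.5 times. Alternatives were RLE and upper-quartile scaling, no filter, DESeq2 1.42.0, limma-voom 3.58.1, the block, only the 8 libraries compared (pairwise comparisons), each sex alone and leaving out each library or day. Pools of different genotypes are separate samples, so genotype p-values within a zone measure the spread between pools. The LZ and DZ libraries of a day and genotype share a pool, and no fit modelled that pairing. The sort-day block is shared by both genotypes. The p-values between zones and of the interaction thus also treat libraries of the same pool as separate samples, and there these libraries are compared directly.

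Gene symbols came from the identifier table, spans, strands, promoters and microRNAs from RefSeq on GRCm38.p6, the assembly that mm10 names. Sites were given 1-based. The members and all lists were chosen with earlier results of these data known. The background of 6669 genes was added after the values were seen. Genes are named where they were called, where they had the 4 highest or lowest genotype values, or where they had the most or no cDNAs, and as the family of the targeted gene. Other genes named, for a block call, groups that did not overlap, a family role or a cluster, were chosen after their values were seen.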

Additional observations from a re-analysis of the deposited data

Results flagged for a closer look

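In 88 groups of 4 libraries (22 named genes in 4 groups each), 6 had 1 library far from the other 3, with a gap to the nearest that was larger, relative to the whole range, than Dixon's critical value. Chance gives about 1 in 20 such groups. Library 1 of LZ cKO stood apart for Hnrnpa0, at 55.5 CPM against 34.8 to 36.2 CPM in the other 3. The same library stood apart for Pcbp2, at 42.0 CPM against 27.5 to 28.2 CPM. Library 1 of LZ control was also the high one for Pcbp2, at 44.5 CPM against 33.1 to 34.9 CPM. Khdrbs1 was high in library 3 of LZ control, at 362 CPM against 311 to 318 CPM. Matr3 was low in library 1 of DZ control, at 235 CPM against 273 to 278 CPM. Ptbp2, the paralogue of the targeted gene, was high in library 3 of DZ cKO, at 290.4 CPM against 182 to 195 CPM.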

How the results depend on the processing

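The genotype counts of 0 called held under RLE and upper-quartile scaling, no filter, DESeq2, limma-voom, only the 8 libraries compared, each sex alone and every left-out library or day. They changed with the sort-day replicate block, which called 6 in the light zone and 1 in the dark zone. Between zones the block called 8 in control and 13 in cKO mice, DESeq2 called 3 and 4, and leaving out a library or day gave 0 to 2 in control and 0 to 1 in cKO mice. In control mice the count was 0 without the filter and 0 in each sex alone. Srsf11 lost its zone call on leaving out any 1 LZ control library (adjusted p = 0.0656 to 0.129), LZ cKO library 4 (0.0513), DZ control library 1, 3 or 4 (0.102, 0.102 and 0.0872) or any 1 sort day (0.0757 to 0.229). It also lost it under upper-quartile scaling (0.0525), without the filter (0.102) and in males (0.566) or females (0.196) alone. The medians of the 43 genes kept their sign in all 4 pairwise comparisons under the alternatives run, and their ranges over the left-out libraries and days were -0.17 to -0.10 for genotype in the dark zone, and -0.15 to -0.083 in control and -0.21 to -0.11 in cKO mice between zones. In the light zone the genotype median ranged from -0.22 to -0.11 over the left-out libraries and days, and the interaction median from -0.10 to 0.021. Signs near 0 changed for Hnrnph2 in the dark zone (-0.062 to 0.050 over the left-out libraries and days, 0.054 in males), Khdrbs1 in the light zone (-0.012 to 0.091, -0.036 in males) and Syncrip in the dark zone (-0.058 to 0.19). The cause of these changes was not tested. Genes of the 43 with a PTBP1 site numbered 22 at 5 or more cDNAs and 22 and 14 near a site in at least 2 and 3 replicate lists. They numbered 25, 23, 7, 33 and 26 in replicate lists 1, 2, 3, 4 and 5 alone. The counts for at least 2 lists and for single lists were not set beside all genes. The few cDNAs of most sites limit what the lists show for single genes, and 4 libraries a group limit small changes of level.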
